A study of Mus musculus with 11 samples.

Results

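Sst, Ghrl, Iapp, Tac1 and Gip encode gut peptides that are not the defining hormones of L cells or enterochromaffin (EC) cells, and they were read by symbol in the tables of these cells from the colon. They are 5 of the 49997 gene symbols that both tables list, and all 5 are listed in both, whatever their level. All donors were ovariectomised C57BL/6 female mice aged 10 to 14 weeks. They received estradiol benzoate (EB), an ester of the hormone estradiol, or sesame oil as vehicle. The L-cell libraries came from mice of the genotype Cck-Cre;R26LSL-tdTomato, taken 4 hours after treatment with about 7000 cells per group, and comprise 3 EB and 2 vehicle libraries. The red fluorescent tdTomato there marks cells in which the Cck promoter has driven Cre, so the cells are chosen by a history of Cck activity. The EC-cell libraries came from mice of the genotype ECFLTG with at least 500 cells per sample, and comprise 4 EB and 2 vehicle libraries. No time between treatment and collection is labelled for the EC cells. The title of the series places the study in female gut sensitivity, and the comparison in each cell type is EB against vehicle.

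Somatostatin, the product of Sst, is released by D cells and restrains the secretion of neighbouring endocrine cells through receptors that lower cyclic AMP. Ghrelin (Ghrl) comes mainly from the stomach and acts on its receptor only after an acyl chain has been added by the enzyme Mboat4. Amylin (Iapp) is best known as the partner of insulin in pancreatic beta cells and signals through the calcitonin receptor joined to a receptor activity modifying protein (Ramp). Tac1 encodes substance P and neurokinin A, which act on tachykinin receptors, and is known in part of the EC cells as well as in enteric neurons. The incretin Gip belongs to K cells, which lie mainly in the upper small intestine.

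The gene-level depth was 27658579 to 31449447 reads for an L-cell library, and for an EC-cell library it was 4955808 to 10640921. Values below are normalised counts, scaled within each table, unless another scale is named. Whether each library stands for a different animal is not labelled; the p-values therefore reflect the spread between libraries, which may be technical. The sort labels were checked against marker transcripts. A list of 6 L-cell markers, led by Pyy and Gcg, made up 0.0157% to 0.289% of all L-cell reads and 0.115% to 1.74% of the EC-cell reads, so the L-cell label was not borne out by a higher share of these markers. The same L-cell libraries gave 5.12% to 7.95% of reads to 12 colonocyte markers. A list of 8 EC-cell markers, led by Chga and Chgb, took 0.0116% to 0.0321% of the L-cell reads and 0.811% to 12.4% in EC cells. EB replicates 1 and 2 of the EC cells stood apart, with 0.811% and 1.11% for the EC-cell markers and 2.74% and 2.85% for the colonocyte markers. The other 4 EC-cell libraries had 4.74% to 12.4% and 0.281% to 1.04%. EB replicate 3 of the EC cells had reads on 30288 genes, against 15868 to 19859 in the other EC-cell libraries. In bulk libraries such as these, fewer cells of a type and less RNA per cell cannot be told apart.

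The members sit on 3 chromosomes of the GRCm38 assembly (mm10). Sst lies on chromosome 16, 23889573 to 23891342, on the minus strand. Ghrl (113716119 to 113719911, minus strand), Iapp (142298425 to 142303820, plus strand) and Tac1 (7555061 to 7562978, plus strand) lie on chromosome 6, and Gip lies on chromosome 11, 96024532 to 96030831, on the plus strand. Iapp falls inside the span of the transporter gene Slco1a5 on the opposite strand, with 0 exonic bases in common. Ghrl shares 3 and 169 exonic bases with the antisense entries Gm26982 and Gm44033, which are not in the tables. Whether counting used strand is not given in the sources used here, so reads from opposite strands at these places cannot be told apart.

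The 250 bases before the start site are shown for Sst and Iapp, whose levels went together most closely in L cells, and for Tac1, the other member tested in both tables. The sequences are from RefSeq on GRCm38.p6, read on the gene's own strand from 5′ to 3′. They cover chr16:23890845-23891094 (minus strand) for Sst, chr6:142298175-142298424 (plus strand) for Iapp and chr6:7554811-7555060 (plus strand) for Tac1. The Sst window lies inside the gene's full RefSeq span. Capitals mark the cyclic AMP response element TGACGTCA and its shorter form TGACG, on either strand.
Sst: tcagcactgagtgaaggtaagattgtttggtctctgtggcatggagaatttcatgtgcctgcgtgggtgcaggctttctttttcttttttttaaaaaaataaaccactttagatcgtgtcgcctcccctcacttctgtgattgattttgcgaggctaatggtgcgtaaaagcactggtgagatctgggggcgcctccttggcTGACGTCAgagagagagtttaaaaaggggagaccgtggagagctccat
Iapp: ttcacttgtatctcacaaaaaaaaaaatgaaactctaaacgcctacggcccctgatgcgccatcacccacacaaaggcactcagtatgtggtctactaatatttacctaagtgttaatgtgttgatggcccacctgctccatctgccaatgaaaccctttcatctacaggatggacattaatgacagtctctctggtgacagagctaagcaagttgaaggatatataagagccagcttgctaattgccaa
Tac1: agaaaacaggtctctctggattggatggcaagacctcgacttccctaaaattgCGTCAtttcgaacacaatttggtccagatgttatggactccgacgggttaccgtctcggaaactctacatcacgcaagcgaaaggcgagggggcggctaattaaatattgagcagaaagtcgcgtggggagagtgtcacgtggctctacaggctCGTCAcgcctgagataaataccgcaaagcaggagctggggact

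Motifs were searched on both strands in windows from 250 bases before to 50 bases after each RefSeq start, of which the 5 members have 8 (4 of them for Ghrl). TGACGTCA was in 1 of the 8, that of Sst, 48 bases before the start, and in 1.79% of all 32851 windows. An element of these letters is the textbook site through which cyclic AMP acts on somatostatin transcription. TGACG, which overlaps it, was in the windows of Sst and Tac1 and in 20.8% of all windows; in Tac1 it starts 197 and 43 bases before the start. The estrogen response element, GGTCA and TGACC with 3 bases between them, was in 0 of the 8 member windows and in 0.0700% of all windows. Its shorter form GGTCA was in 3 of the 8, all belonging to Ghrl, and in 40.5% of all windows. TATAAA was in 0 of the 8 and in 13.6% of all windows. A match is a string of letters and not a measured site, and an absent match says only that the letters are not in the window.

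**Figure D1:**
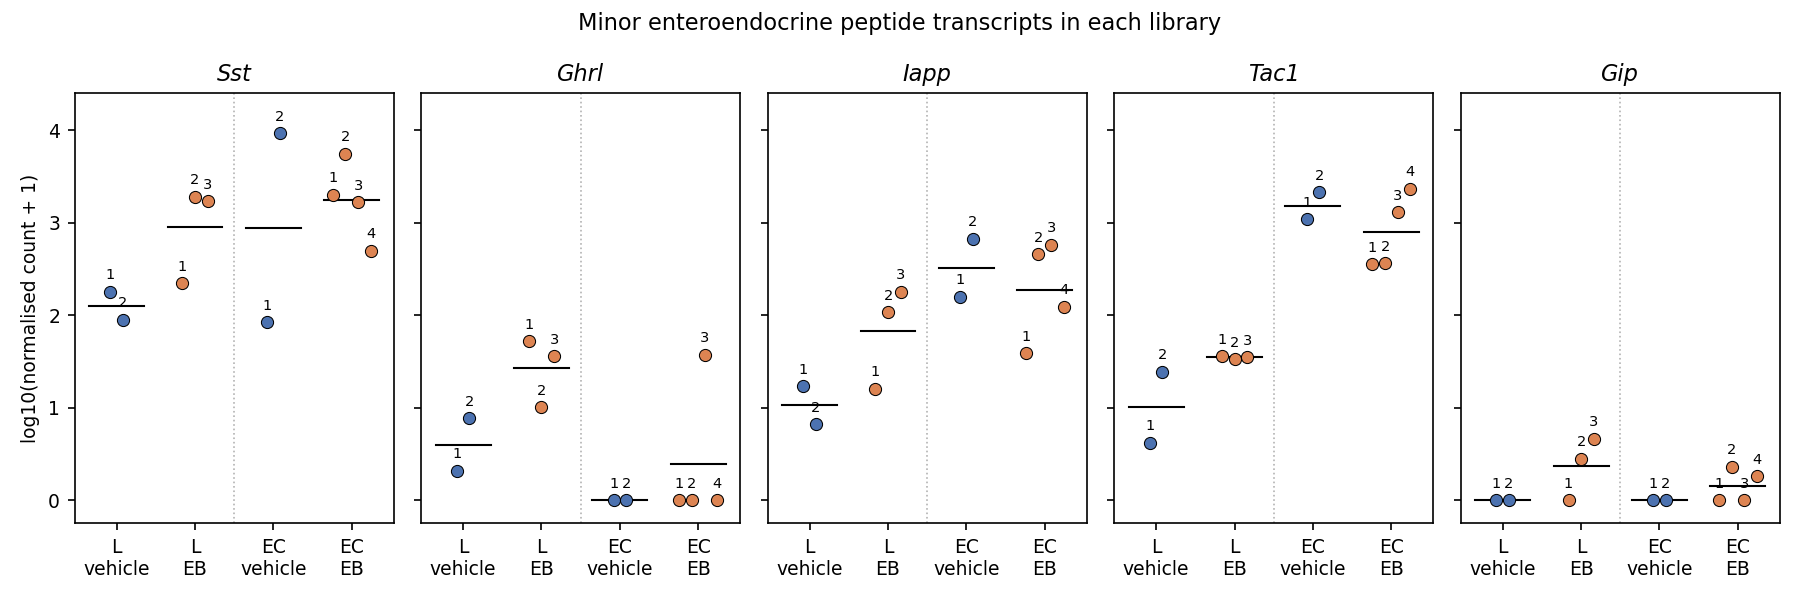
Level of each member in each of the 11 libraries, as log10(normalised count + 1); points are libraries with their replicate number, blue for vehicle and orange for EB, and bars are the group means of these log values. The tables were normalised separately, so height is comparable within the L side or within the EC side of each panel. In L cells every EB point lies above every vehicle point for Sst, Ghrl and Tac1, and in EC cells the groups overlap for Sst, Iapp and Tac1.

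In the L-cell libraries all 4 members with enough reads to test were higher on average with EB than with vehicle, where 49.7% of all genes were, and none passed the adjusted threshold. Gene by gene, limma on log2(normalised count + 1) called 4 of 16217 genes at an adjusted p (Benjamini-Hochberg) under 0.05, or 0.0247%, and 0 of the 4 tested members. At an unadjusted p under 0.05, 3 of the 4 (Sst, Ghrl and Iapp) were higher, against 7.34% of all genes tested. Every EB library lay above every vehicle library for 3 of the 4 (Sst, Ghrl and Tac1), against 14.3% of all genes. Gip did not reach the filter of 10 in 2 libraries. Of the 4, 3 (Ghrl, Iapp and Tac1) had fewer than 2 vehicle libraries at 10 and passed only with their EB libraries, so these counts describe the 4 tested members and are no support for a common rise. Their median log2 difference was 2.71, against -0.0022 over all genes. By DESeq2 on the recovered reads, which called 3.22% of these genes, Iapp alone among the members passed, with an adjusted p of 0.029.

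Sst had 179.8 and 88.5 normalised counts in the vehicle libraries of L cells and 220.1, 1907 and 1720.1 in the EB libraries. EB replicate 1 was thus close to the vehicle libraries and EB replicates 2 and 3 were far above them, without overlap between the groups. The means were 134 ± 64.5 (SD, n = 2) and 1283 ± 925 (SD, n = 3). The log2 difference of 2.82 ± 0.86 (SE) had a 95% interval from 0.83 to 4.81 and an adjusted p of 0.286 in limma. Other settings gave adjusted p-values from 0.0686 to 0.68.

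Iapp had 15.96 and 5.60 normalised counts in the vehicle libraries of L cells and 15.1, 107 and 178 in the EB libraries. Again EB replicate 1 sat with the vehicle libraries, here below vehicle replicate 1, so the groups overlapped. The means were 10.8 ± 7.32 (SD, n = 2) and 99.98 ± 81.7 (SD, n = 3), and the log2 difference was 2.68 ± 1.01 (SE), with an adjusted p of 0.372 in limma. Other settings gave adjusted p-values from 0.029 to 0.744.

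Ghrl had 1.06 and 6.72 normalised counts with vehicle, from 1 and 6 reads, and 51.3, 9.06 and 35.2 with EB, from 51, 10 and 39 reads. Its highest library was EB replicate 1, which was the lowest EB library for Sst and Iapp. The log2 difference was 2.74 ± 0.997 (SE), with an adjusted p of 0.358 in limma and from 0.148 to 0.62 under other settings.

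Tac1 had 3.19 and 23.5 normalised counts with vehicle and 35.2, 32.6 and 34.3 with EB. The EB libraries were almost level with each other, at 34.04 ± 1.31 (SD, n = 3), and the vehicle mean of 13.4 ± 14.4 (SD, n = 2) rested on unlike libraries. The log2 difference was 1.79 ± 0.80 (SE), with an adjusted p of 0.444 in limma, and leaving out vehicle replicate 1 gave 0.51 where leaving out vehicle replicate 2 gave 3.06. Gip was at 0 reads in both vehicle libraries and in EB replicate 1 and had 2 and 4 reads in EB replicates 2 and 3. A count of 3 reads corresponds to 0.0954 to 0.108 reads per 1000000 in these libraries, so Gip was at or close to what a count of 0 allows; this limit covers counting error only.

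Endocrine and colonocyte markers also differed between the L-cell libraries. Between the vehicle libraries, Ghrl (1 and 6 reads) and Tac1 (3 and 21 reads) were higher in replicate 2, which had the lower L-cell marker share. Sst and Iapp were lower in that replicate. The counts of Ghrl and Tac1 are low, so nothing is read from these orders. The 6 L-cell markers took 0.0435% and 0.0157% of reads with vehicle and 0.0598%, 0.178% and 0.289% with EB, and all 6 had reads in every L-cell library. Chga, the secretory granule protein chromogranin A, had 246 and 28.0 normalised counts with vehicle and 433, 2303 and 2578 with EB. The 12 colonocyte markers took 7.95% and 6.86% with vehicle and 5.12% to 5.49% with EB. Relative to 1000 normalised counts of Chga and Chgb together, Sst was 413 and 1717 with vehicle and 216, 387 and 321 with EB. On that scale Iapp was 36.7 and 109 with vehicle and 14.8, 21.7 and 33.2 with EB. Every EB library was then below every vehicle library for both genes, as for 88.8% of all genes on that scale, so nothing is read from this order. Tac1 overlapped on it, at 7.33 and 457 with vehicle and 34.5, 6.61 and 6.40 with EB, and so did Ghrl, at 2.44 and 130.4 with vehicle and 50.3, 1.84 and 6.57 with EB. Markers of other cells differed as well. The 8 stem and progenitor markers took 0.0040% and 0.0031% of reads with vehicle and 0.00923%, 0.0116% and 0.0099% with EB. Of them, 7 of 7 tested were higher with EB, where 49.7% of all genes were. As 1 of the 7 had fewer than 2 vehicle libraries at 10, this count is a description. The 7 stromal markers took 0.027% in vehicle replicate 2, with 3978 reads of the collagen Col3a1, and at most 0.000749% in the other L-cell libraries. The 8 pancreatic markers took 0.157% in vehicle replicate 1 and 0.0111% to 0.032% in the others. The vehicle libraries of the L cells thus each stood apart on a list of their own, and the part of these marker differences in the results was not tested.

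**Figure D2:**
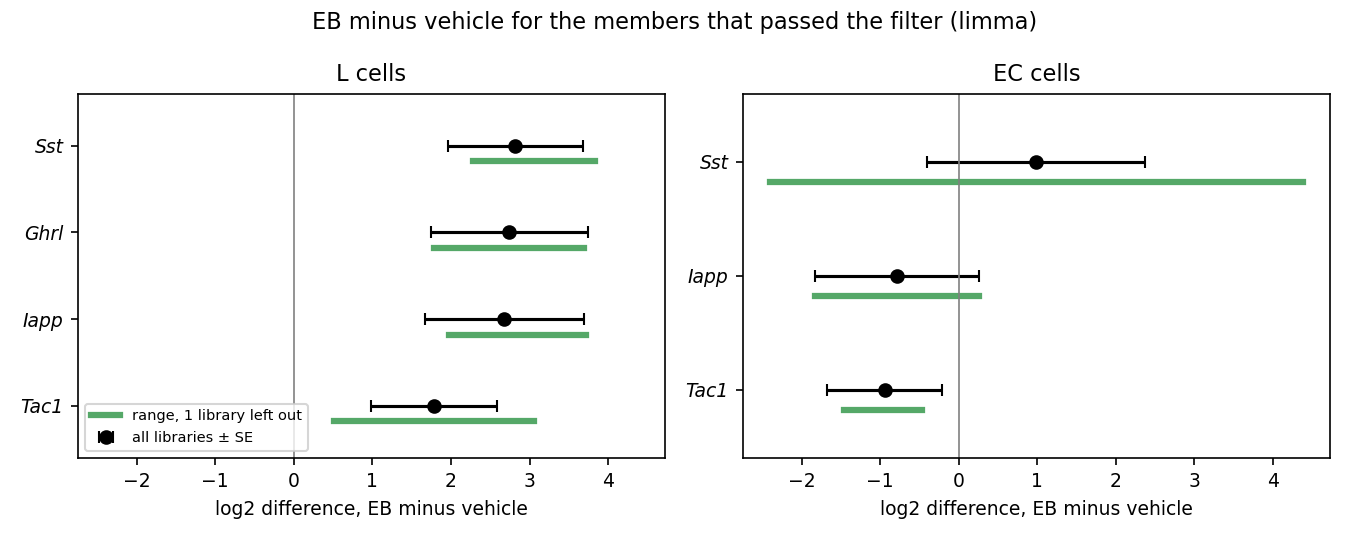
Log2 difference, EB minus vehicle, of each member that passed the filter, in L cells (left) and EC cells (right), with points and bars for the limma estimate ± SE and green bars for the range over fits that left out 1 library. In L cells the fits that were run stay above 0, for Ghrl without those lacking EB replicate 1 or 3, where it failed the filter; they run from 2.28 to 3.83 for Sst and from 0.51 to 3.06 for Tac1; in EC cells the range of Sst runs from -2.41 to 4.38 and that of Iapp crosses 0.

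In the EC-cell libraries no member passed the test of EB against vehicle, and the libraries of a group were far apart. Limma called 0 of 15287 genes (0%), and 0 of the 3 members that passed the filter (Sst, Iapp and Tac1). At an unadjusted p under 0.05 it counted 3.55% of all genes in either direction, 2.43% as higher, and 0 of the 3. Of the 3, 1 was higher by the log2 difference, where 47.5% of genes were. DESeq2 called 15 genes (0.0981%) and edgeR 0, with no member among them. The EB and vehicle libraries overlapped for all 3, where every EB library was above the vehicle libraries for 4.98% of genes and below them for 6.30%. The median log2 difference of the 3 was -0.79, against -0.071 over all genes. Ghrl and Gip did not pass the filter.

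Sst had 82.9 and 9276 normalised counts in the vehicle libraries of EC cells, from 179 and 8412 reads, a 112-fold spread within the group. The EB libraries had 2013, 5573, 1676 and 498, all of them between these vehicle values. The means were 4679 ± 6500 (SD, n = 2) and 2440 ± 2188 (SD, n = 4), so the mean was lower with EB, while the log2 difference was above 0 at 0.99 ± 1.39 (SE). Its 95% interval ran from -2.02 to 4.00 and the adjusted p was 0.923 in limma. Leaving out vehicle replicate 1 gave -2.41, leaving out vehicle replicate 2 gave 4.38, and DESeq2 gave -0.94, so no direction is given for Sst in EC cells. Hhex, the transcription factor that pancreatic D cells need in mice for Sst expression, had 20.8 and 415 normalised counts with vehicle and 58.96, 39.1, 25.9 and 0 with EB. Vehicle replicate 2 was thus the highest library for both genes.

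Iapp had 157 and 672 normalised counts with vehicle and 37.9, 455, 578 and 122 with EB in the EC cells. EB replicates 2 and 3 lay between the vehicle libraries, and EB replicates 1 and 4 lay below both. The log2 difference was -0.79 ± 1.04 (SE), with a 95% interval from -3.05 to 1.47 and an adjusted p of 0.922 in limma, and it was 0.26 without vehicle replicate 2.

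Tac1 was read at 1097 and 2130.4 normalised counts with vehicle and 357, 365, 1299.7 and 2348 with EB in the EC cells. The low libraries were EB replicates 1 and 2, those with the low EC-cell marker share, and the highest was EB replicate 4, which had the highest share. The log2 difference was -0.94 ± 0.74 (SE), with a 95% interval from -2.54 to 0.66 and an adjusted p of 0.905 in limma. Without EB replicates 1 and 2, a setting chosen after seeing the data, it was 0.19. Per 1000 normalised counts of Chga and Chgb, Tac1 was 3.45 and 5.06 with vehicle and 6.37, 5.004, 5.95 and 3.79 with EB. The spread over the 6 libraries, highest over lowest, was 6.58-fold for Tac1 itself and 1.85-fold on that scale. For Sst the spread went from 112-fold to 293-fold and for Iapp from 17.7-fold to 31.6-fold, so of the 3 it was Tac1 whose spread narrowed. The share of all genes that narrow on this scale was not counted, so the narrowing is not read as a trait of Tac1. The EC-cell marker Tph1 was lowest in EB replicates 1 and 2 too, at 4984 and 5708 normalised counts, against 29230 to 46423 in the other EC-cell libraries.

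**Figure D3:**
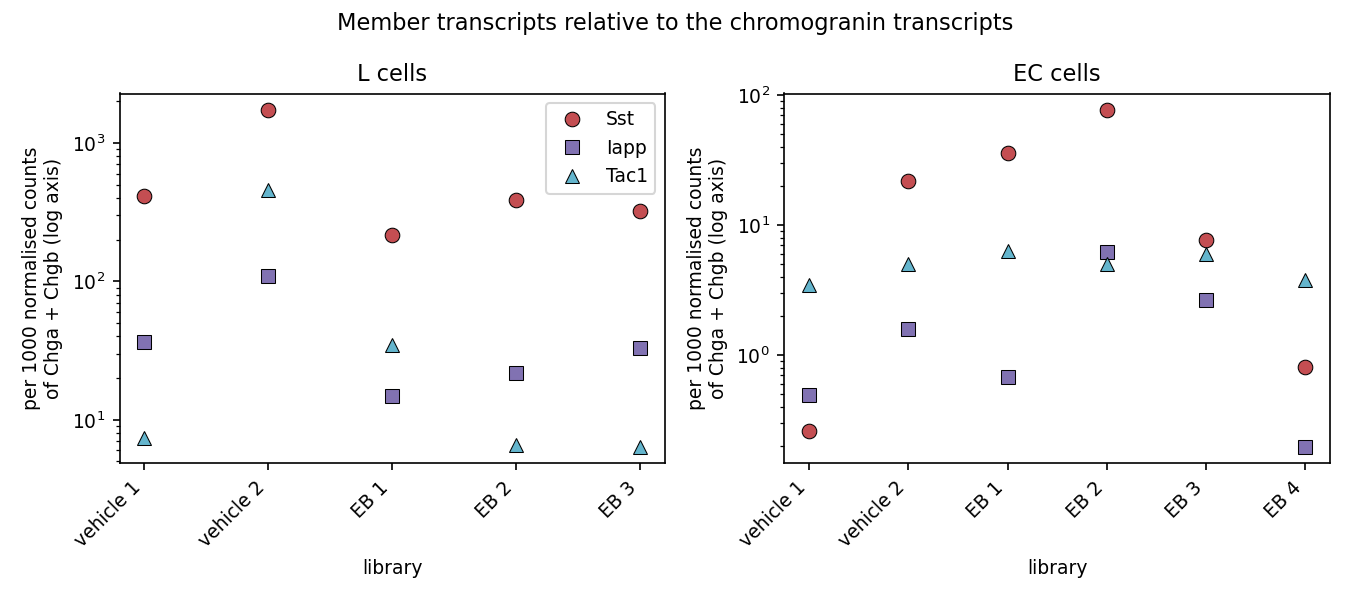
Sst, Iapp and Tac1 in each library per 1000 normalised counts of Chga and Chgb together, on log axes, for L cells (left) and EC cells (right). In EC cells Tac1 stays between 3.45 and 6.37 in all 6 libraries, while Sst ranges from 0.261 to 76.4.

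Ghrl was at 0 reads in 5 of the 6 EC-cell libraries and at 36.3 normalised counts, from 42 reads, in EB replicate 3, the library with reads on the most genes. Gip had 1 read in each of EB replicates 2 and 4 and 0 in the other 4. In these libraries 3 reads correspond to 0.282 to 0.605 reads per 1000000, so both transcripts were at or under that limit except Ghrl in this EB replicate.

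The change with EB in EC cells minus that in L cells was tested in a single limma fit over all 11 libraries and 13802 genes, of which 0 (0%) were called, with 4.56% at an unadjusted p under 0.05 in either direction and 2.18% as higher. The difference was above 0 for 47.4% of genes and for 0 of the 3 members tested. It was -3.47 ± 1.91 (SE) for Iapp, -2.73 ± 1.35 for Tac1 and -1.83 ± 2.30 for Sst, with a median of -2.73 against -0.085 over all genes. The adjusted p-values were 0.862, 0.862 and 0.882, and 0 of the 3 had an unadjusted p under 0.05. DESeq2 called 32 genes for this difference and none of the members. For Sst it was 1.56 without vehicle replicate 2 of the EC cells and -5.23 without vehicle replicate 1, so its sign rests on those libraries.

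Levels are set side by side across the tables as reads per 1000000 of each library, without a test, because the tables were normalised apart. Tac1 ranged from 0.106 to 1.27 reads per 1000000 in the L-cell libraries and from 45.4 to 431 in the EC-cell libraries. The EC-cell marker Chga was apart as well, at 0.856 to 91.2 and 2455 to 31116. The share of all genes that stand apart in this way was not counted, so nothing is read from it. Iapp ranged between 0.171 and 6.29 in L cells and between 4.83 and 123 in EC cells, where EB replicate 1 fell below EB replicate 3 of the L cells. Sst ranged between 2.70 and 66.96 in L cells and, overlapping these, between 16.8 and 1697 in EC cells.

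Between genes, levels were compared as FPKM, the reads per 1000000 reads of a library and per kilobase of exon. The length was the union of all annotated exons, 3399 bases for Tac1, 974 for Iapp and 721 for Sst. Sst was the highest member in all 5 L-cell libraries, from 3.75 to 92.9 FPKM. In EC cells the order changed from library to library. Vehicle replicate 1 had Tac1 at 65.5 FPKM, Iapp at 32.7 and Sst at 23.3, and vehicle replicate 2 had Sst at 2354, Iapp at 126 and Tac1 at 115. In reads per 1000000 of vehicle replicate 2, Tac1 was above Iapp, at 390 and 123, so the order of these genes there rests on the length. By FPKM Sst took rank 8 of the 37989 symbols with a length in vehicle replicate 2 and rank 2197 in vehicle replicate 1, with ranks 115, 34, 67 and 390 in the EB libraries.

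Other sources of these transcripts were looked for by their markers. Enteric neurons also make Tac1 and Sst. The 10 neuronal markers, which include Snap25, took 0.000199% to 0.000942% of reads in L cells and 0.0134% to 0.0888% in EC cells. Between 0 and 7 of the 10 were at 0 in a library. Most of that share in EC cells was Snap25, a protein of secretory vesicle release, with 7492 and 2526 reads with vehicle and 693 to 5433 with EB. Elavl3, a neuronal RNA-binding protein, had 205 and 87 reads with vehicle and 1, 73, 61 and 27 with EB. Prph, a neuronal filament protein, had 0 with vehicle and 7 over the EB libraries. Ret, of the same list, had 578 and 104 reads with vehicle and 53, 7, 354 and 391 with EB. Elavl4 had 14 and 1 reads with vehicle and 0, 0, 24 and 38 with EB. Nos1 had 2 and 0 reads with vehicle and 0, 0, 16 and 157 with EB. Of the 8 pancreatic markers, the insulin gene Ins1 was at 0 in all 11 libraries, and Ins2 had 5 reads in all in L cells and 13 in EC cells. Acinar genes differed from these among the L-cell libraries: Cela2a had 23615 and 57 reads with vehicle and 0 to 4 with EB, and Cpa1 had 7034 and 18 with vehicle and 1 to 3 with EB. In EC cells Cela2a had reads in EB replicate 2 alone, 20 of them, and Cpa1 had 0. Cela1, of the same list, had reads in every library. In EC cells it had 1097 and 485 with vehicle and 162, 515, 776 and 795 with EB. In L cells it had 13798 and 3171 with vehicle and 8820, 6880 and 6306 with EB. Iapp had 948 reads over the vehicle and 1198 over the EB libraries of the EC cells. The part of neuronal or pancreatic RNA in the member levels was not tested.

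The receptors through which the member peptides act were counted as well. Of 14 receptor and receptor partner genes, 7 passed the filter in L cells, with 6 higher and 1 lower with EB, 0 called, 4 at an unadjusted p under 0.05 (11.6% of all genes) and a median log2 difference of 1.16 against -0.0022 over all genes. Of the 7, 3 had fewer than 2 vehicle libraries at 10 and passed only with EB libraries, Sstr3 and Gipr among them, so the count is a description. DESeq2 called 2 of them, against 3.22% of all genes, and edgeR 0. Over all genes 49.7% were higher with EB. Sstr3, a somatostatin receptor, had 3.19 and 0 normalised counts with vehicle and 14.1, 73.4 and 56.9 with EB, a log2 difference of 4.30 ± 1.02 (SE), with an adjusted p of 0.229 in limma and 0.0078 in DESeq2. Sstr5, another of them, had 119 and 65.0 with vehicle and 105, 592 and 531 with EB, so EB replicate 1 was again with the vehicle libraries; its adjusted p was 0.378 in limma and 0.0249 in DESeq2. Sstr1 had the highest normalised count of the somatostatin receptors in L cells, at 1615 ± 702 (SD, n = 2) with vehicle and 1751 ± 128 (SD, n = 3) with EB. Sstr2 went from 27.7 ± 9.01 to 56.6 ± 9.86, and Sstr4 was at 0. The Gip receptor Gipr went from 1.09 ± 0.0403 to 11.96 ± 5.15, from 2 and 39 reads. Ramp1 was at 2505 ± 1108 with vehicle and 5840 ± 2952 with EB, while Calcr, with which it forms an amylin receptor, had 7 reads in all. Ramp2 was at 23.3 ± 22.5 and 18.8 ± 13.1, and Ramp3 had 0 reads with vehicle and 32 with EB. The tachykinin receptors Tacr1, Tacr2 and Tacr3 had 2, 4 and 3 reads over the 5 L-cell libraries, and the ghrelin receptor Ghsr had 1.

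In EC cells 9 of the 14 passed, 3 higher and 6 lower with EB, with 0 called by limma, DESeq2 or edgeR, 0 at an unadjusted p under 0.05, and a median of -0.82 against -0.071; 3 of the 9 passed only with EB libraries. Over all genes there, 47.5% were higher and 3.55% had such an unadjusted p. Calcr was at 0 reads in both vehicle libraries and at 99.7, 32.6, 3.46 and 0 normalised counts with EB, highest in EB replicate 1. Ramp3 had 28.7 and 200 with vehicle and 0, 0, 54.4 and 51.2 with EB. The somatostatin receptors Sstr1, Sstr2, Sstr3 and Sstr5 averaged 570, 0.551, 51.6 and 204 with vehicle and 462, 11.9, 65.7 and 88.3 with EB. Sstr5 was lowest in EB replicates 1 and 2, at 0 and 19.5, and Sstr3 was highest in EB replicate 4, at 186. Ramp1 averaged 549.9 with vehicle and 382 with EB, Ramp2 130.4 and 67.8, and Gipr 23.6 and 64.3. Ghsr had 1 read, Tacr1 4, Tacr2 1, Sstr4 4 and Tacr3 0 over the 6 libraries.

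Genes that process, regulate or break down peptide hormones were also read. Of 10 such genes, among them the peptidases Dpp4 and Mme, 9 passed in L cells, 8 higher and 1 lower with EB. Limma called 0 of them, 3 had an unadjusted p under 0.05, and the median was 0.28 against -0.0022. DESeq2 called 2 and edgeR 0. Over all genes 49.7% were higher, 11.6% had such an unadjusted p and DESeq2 called 3.22%. Cpe, which trims basic residues from prohormones, had 333 and 95.3 normalised counts with vehicle and 369, 1525 and 2035 with EB, a log2 difference of 2.55 ± 0.75 (SE) and an adjusted p of 0.273 in limma. Scg5, a chaperone of the convertase Pcsk2, and Pcsk1n, an inhibitor of Pcsk1, differed by 2.59 ± 0.65 and 2.22 ± 0.61, with adjusted p-values of 0.231 and 0.248 in limma and 0.0102 and 0.00186 in DESeq2. The convertase Pcsk1 differed by 0.27 ± 0.24. Mboat4, the ghrelin acyltransferase, was at 11.5 ± 1.20 (SD, n = 2) with vehicle and 16.6 ± 10.2 (SD, n = 3) with EB, a difference of 0.27 ± 0.82. In EC cells 9 of the 10 passed, 1 higher and 8 lower, with 0 called by limma, DESeq2 or edgeR, 2 at an unadjusted p under 0.05 and a median of -1.21 against -0.071. These were Pcsk1n, at -2.04 ± 0.73, and Cpe, at -1.77 ± 0.68, each with an adjusted p of 0.905 in limma and with its highest value in vehicle replicate 2. Scg5 differed by -1.48 ± 0.82 there. Mboat4 averaged 50.4 ± 37.9 (SD, n = 2) with vehicle and 42.1 ± 24.0 (SD, n = 4) with EB, in libraries of which 5 had no Ghrl read.

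Of 12 genes for relatives of the member peptides, 3 passed in each table: Gcg and Sct, which belong with Gip to the glucagon family, and Adm, a relative of amylin. In L cells 2 were higher and 1 lower, with a median of 1.98 against -0.0022 over all genes. Limma, DESeq2 and edgeR called 0 of them, and 2 had an unadjusted p under 0.05. Over all genes 49.7% were higher and 11.6% had such an unadjusted p. Gcg differed by 1.99 ± 0.73, Sct by 1.98 ± 0.61 and Adm by -0.25 ± 0.40. In EC cells 0 were higher and 3 lower, where 47.5% of all genes were higher. The median was -1.07 against -0.071 over all genes, with 0 called by these tools and 0 at an unadjusted p under 0.05. Adm, at -1.83 ± 1.07, was below both vehicle libraries in all 4 EB libraries, as were 6.30% of all genes. Cort, the close relative of Sst, was at 0 in every library.

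Transcription factors of the enteroendocrine lineages were measured as a list of 20. In L cells 17 passed, 15 higher and 2 lower with EB, with 0 called, 9 at an unadjusted p under 0.05, 11 with every EB library above the vehicle libraries and a median of 2.00 against -0.0022; DESeq2 called 6 and edgeR 0. Over all genes 49.7% were higher, 11.6% had such an unadjusted p, 14.3% had such an order and DESeq2 called 3.22%. Of the 17, 9 had fewer than 2 vehicle libraries at 10, Myt1 and Rfx6 among them, and passed only with EB libraries, so these counts too are a description. Myt1 differed by 3.03 ± 0.62, Rfx6 by 3.64 ± 0.89 and Pax6 by 2.64 ± 0.68, with adjusted p-values of 0.188, 0.231 and 0.234 in limma. Hhex had 33.0 and 16.8 normalised counts with vehicle and 58.3, 87.9 and 88.5 with EB, a difference of 1.66 ± 0.47 with an adjusted p of 0.258. In EC cells 19 passed, 0 higher and 19 lower, with 0 called by limma, DESeq2 or edgeR, 1 at an unadjusted p under 0.05 and a median of -1.12 against -0.071. Over all genes there, 47.5% were higher and 3.55% had such an unadjusted p. The 1 was Foxa2, at -4.72 ± 2.16 with an adjusted p of 0.905 in limma. Of the 19, 5 had every EB library below both vehicle libraries, against 6.30% of all genes. As 2 of the 19 had fewer than 2 EB libraries at 10, this count is a description as well. Fev and Lmx1a are in this list and among the EC-cell markers, so the lists are not independent. The part of the EC-cell and colonocyte marker shares given above in these counts was not tested.

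**Figure D4:**
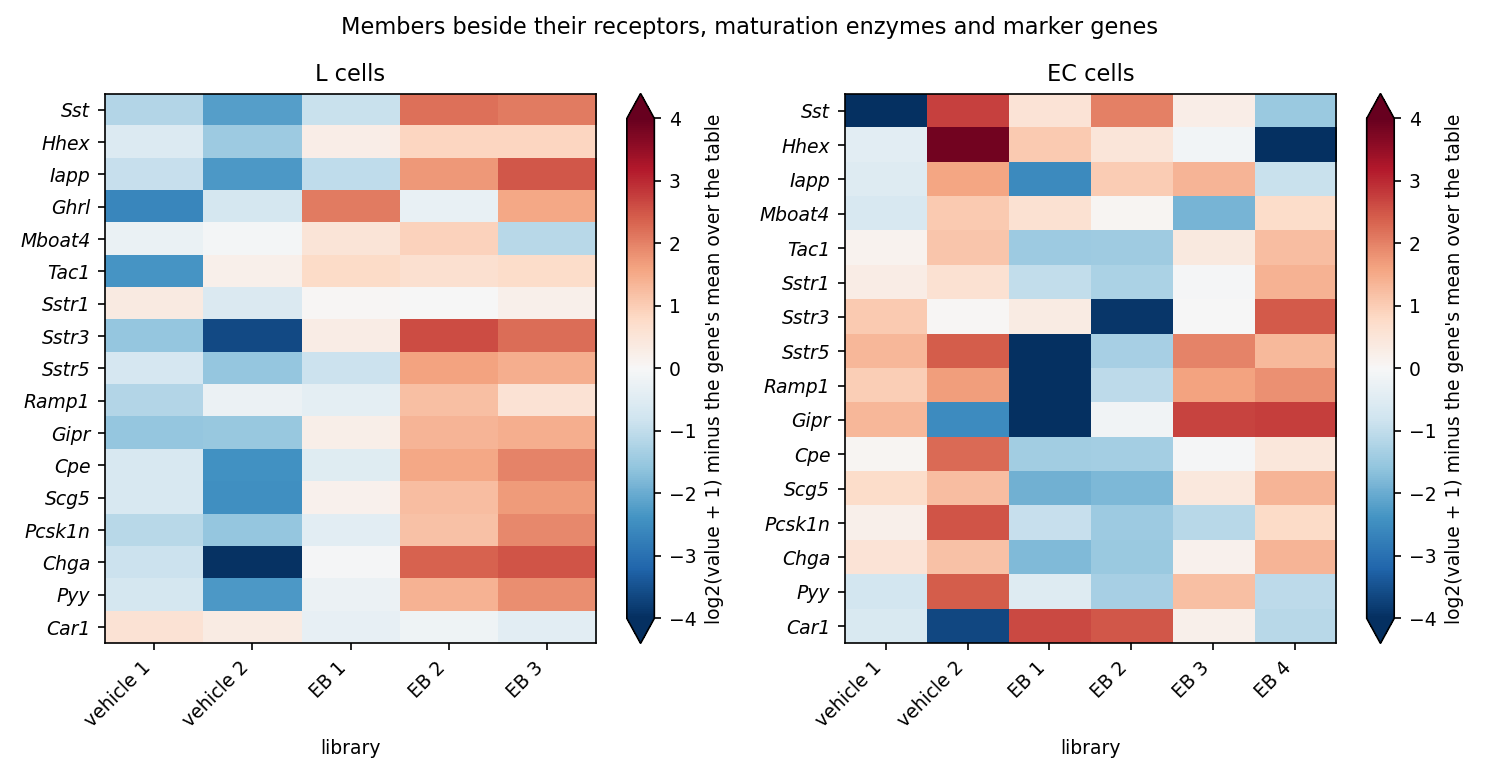
Members, receptors, maturation genes and markers in each library, as log2(normalised count + 1) minus the gene's mean over the libraries of the table, for L cells (left) and EC cells (right); colours past 4 in either direction are drawn at the end of the scale. Sst, Iapp, Cpe, Scg5, Chga and Pyy are all high in EB replicates 2 and 3 of the L cells, and Tac1, Scg5 and Chga are low in EB replicates 1 and 2 of the EC cells.

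Genes most like a member were found by the root mean square difference between profiles of log2(normalised count + 1), each centred on its mean, among genes with a mean of at least 50. Over the 5 L-cell libraries and 11494 candidates, Sst was most like Iapp (0.31), Cpe (0.44) and Resp18 (0.44), and Iapp was most like Sst (0.31), Cpe (0.36) and the calcium sensor Scgn (0.37). A flat profile would have been 1.80 from either. Ghrl was most like Cyp2f2 (0.55), Trpv3 (0.75) and Slc28a3 (0.78), and Tac1 most like Ak1 (0.31), Ptprm (0.34) and Capn13 (0.38). Sst was 1.98 from Ghrl and 1.68 from Tac1, so the members did not share a profile in L cells. Over the 6 EC-cell libraries and 10298 candidates, the nearest genes to Sst were at 1.08 (Nrde2), 1.10 (Fgr) and 1.11 (Afg1l), where a flat profile would have been at 2.25. Those to Iapp were Ppp1r12c (0.26), Pigl (0.47) and Tprkb (0.49), and those to Tac1 were Zw10 (0.063), Upb1 (0.14) and Gm2423 (0.16). Sst and Iapp, 0.31 apart in L cells, were 2.07 apart in EC cells. With so many candidates and so few libraries these distances describe the libraries, which share their depth and marker content.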

How the data were processed

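Full-length cDNA was made from polyA RNA with a SMART-Seq HT kit and tagmented with Nextera XT, per the labels' protocols. Per the submitters' processing notes, which give no versions, the tools were STAR, featureCounts and DESeq2 and the build mm10; annotation and strand settings are not given in the sources used here. Each deposited value is a signal for 1 gene in 1 library, namely counts normalised by the authors with size factors, separately for L cells and EC cells. All values above 0 (100%) were whole multiples of a library's step to within 0.001 of a read, so reads were recovered. Size factors were 0.892 to 1.11 in L cells and 0.712 to 2.16 in EC cells. Replicate libraries differed well beyond sampling noise (chi-square per degree of freedom 29.95 or more), so none was counted as a duplicate.

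Genes that reached 10 in 2 libraries of a table were tested on log2(value + 1) by limma 3.58.1 in trend mode (R 4.3.3) and called at a Benjamini-Hochberg adjusted p under 0.05. That scale understates changes of low genes. The alternatives tried were TMM factors, no filter or one at 50, pseudocounts of 0.5 and 4, a replicate block, each library left out, and, on the recovered reads, DESeq2 1.42.0 and edgeR 4.0.16. EC cells without EB replicates 1 and 2, and the scale per 1000 counts of Chga and Chgb, were added after seeing the data. Exon lengths came from GENCODE M21, which held 37989 of the 49997 symbols, and coordinates and promoters from RefSeq GRCm38.p6.

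The members, gene lists and tests were chosen with earlier results of these data known. All members are named, and from each other list the 3 genes with the smallest p in each table, the receptors of the members, Mboat4, Hhex and the 3 genes most like each member. Other genes are named as markers of a cell type or because a value singled them out. Some genes that the rule names are not reported here.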

Additional observations from a re-analysis of the deposited data

Results flagged for a closer look

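Among the 4 EB libraries of the EC cells, 28 genes (the members and a part of the other named genes) were checked for a single library far from the rest. Dixon's test was used at its critical value of 0.829, which chance passes in about 1 in 20 groups. That rate does not hold for genes mostly at 0. The test was passed by 3 genes. Ghrl was at 36.3 normalised counts in EB replicate 3 and at 0 in the other libraries of the table. A gene with reads in 1 of the 4 libraries alone passes whatever its value, so nothing is read from the Ghrl flag. Cela2a, outside the 28, has that pattern too. Pyy, the L-cell hormone peptide YY, was at 20955 in EB replicate 3, against 3607 to 6376 in the other EB libraries. Pcsk1n was at 1713 in EB replicate 4, against 362 to 524. EB replicate 3, in which Pyy was flagged, had reads on 30288 genes. The part of this in the flagged value was not tested.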

How the results depend on the processing

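Across the alternatives, 142 member differences kept their direction and side of the threshold, 6 reversed and 1 passed it, Iapp in L cells by DESeq2, which took the members called there from 0 to 1. The reversed values were all in EC cells or the comparison with them. The Sst difference in EC cells, 0.99 in the main fit, was -0.94 by edgeR and -0.94 by DESeq2, and ran from -2.41 to 4.38 with 1 library left out; Iapp there ran from -1.83 to 0.26. The Sst difference between the cell types ran from -5.23 to 1.56. Tac1 in EC cells was 0.19 without EB replicates 1 and 2. The cause was not tested.

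Genes called in L cells, 4 in the main fit, were 139 with no filter, 0 by edgeR, 522 by DESeq2 and 56 with a replicate block, and ran from 0 to 92 with 1 library left out (0 without any 1 of the EB libraries, 92 without vehicle replicate 1 and 53 without vehicle replicate 2). In EC cells the main 0 became 15 by DESeq2, 24 with the block, and from 0 to 1 with 1 library left out. For the difference between the cell types the main 0 became 32 by DESeq2 and ran from 0 to 270, the highest without EC-cell vehicle replicate 1. Left-out fits with a lone vehicle library assume that it varies like the other group.

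Replicate numbers were not taken as pairing: only 2 numbers are shared per cell type, with correlations of 0.157 and 0.148 in L cells and 0.0361 and 0.00685 in EC cells. The block called 0 members in each comparison. With 2 vehicle libraries per table, values that 1 of them decides cannot be resolved further.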

Other observations

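Goblet cell markers, a list of 8 led by Muc2 and Tff3, took 0.596% and 1.20% of reads in the vehicle libraries of L cells and 1.20%, 2.47% and 1.89% in the EB libraries. In EC cells they took 1.37% and 0.130% with vehicle and 0.0422%, 0.0742%, 0.78% and 0.0769% with EB. The EC-cell library with the highest goblet share, vehicle replicate 1, was the one with the lowest Sst. Among the others, EB replicate 3, with 0.78%, had Sst at 1676 normalised counts, and vehicle replicate 2, with 0.130%, had 9276. EB replicate 4, with 0.0769%, had 498, EB replicate 2, with 0.0742%, had 5573, and EB replicate 1, with 0.0422%, had 2013. A link between the goblet share and Sst was not tested.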
